A study of Mus musculus with 24 samples.

Results

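Complex I, the NADH dehydrogenase of the mitochondrial inner membrane, was followed across the 4 muscle groups of a nebulin knockout series. Its members were taken by symbol: genes whose names begin with Ndufa, Ndufb, Ndufc, Ndufs or Ndufv formed the subunit class, and genes beginning with Ndufaf formed a separate class of assembly factors. The rule found 36 subunit genes and 7 assembly factors, 43 of 19938 genes with a single symbol, and all 43 were among the 15999 genes bright enough to be tested. Where a gene had more than 1 probe set, as 5 members had, the brightest on average was used. The symbols Ndufb1, Ndufb4 and Ndufaf8 and the 7 subunits encoded by mitochondrial DNA were not analysed here.

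Messenger RNA of quadriceps and soleus was hybridised to Affymetrix arrays, with 6 arrays in each of 4 groups and 24 in all. Every mouse was male, 40 to 42 days old, on a background that mixed 1219S6/SvEvTac with C57BL/6J, and carried 2 conditional copies of the gene for nebulin (Neb), the giant protein that runs along the thin filament of the sarcomere. The conditional knockout (cKO) also carried 1 copy of the MCK-Cre transgene, whose muscle creatine kinase promoter is active in striated muscle fibres, so other cells of the tissue keep an intact gene; the controls carried the same conditional allele without MCK-Cre. The labels describe the cKO quadriceps as markedly smaller than control and the cKO soleus as not significantly changed in size. Nothing in the labels says whether pooled animals were used.

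Complex I passes electrons from NADH to ubiquinone and pumps protons out of the mitochondrial matrix. It is shaped like an L. The arm that reaches into the matrix carries the flavin and iron-sulphur clusters on its core subunits, the arm in the membrane carries the pumps, and accessory subunits surround both. Its nuclear-encoded subunits are joined to those encoded by mitochondrial DNA with the help of assembly factors that are not part of the finished enzyme. Skeletal muscle depends on it for oxidative energy supply, slow and oxidative fibres most of all. The members bear on how the nuclear part of this enzyme was transcribed when nebulin was lost.

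All values below are log2 intensities, or differences between their group means (log2 changes) with the standard error (SE) of a limma model of the 4 group means over all 24 arrays. Adjusted p-values are Benjamini-Hochberg values over 15999 genes from limma, and a gene was called when its value was under 0.05, two-sided. A probe set's brightness depends on its own sequence, so levels of different genes were not compared. As a check of the labels, Neb itself went from a mean of 12.29 ± 0.17 (SD, n = 6) in control quadriceps to 10.84 ± 0.23 (SD, n = 6) in cKO quadriceps. In soleus Neb went from 12.38 ± 0.21 (SD, n = 6) to 11.24 ± 0.20 (SD, n = 6).

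Quadriceps control 4 stood apart from its group. It was the highest of the 6 arrays for 25 of the 36 subunits and the lowest for 7, and the mean over the subunits was 10.12 there against 9.66 to 9.85 on the other 5. The 49 cytosolic ribosomal protein genes measured (Rpl and Rps) were likewise brightest on this array, with a mean of 9.94 against 9.27 to 9.56 on the other control quadriceps arrays. Quadriceps cKO 4 was the highest of its group for 33 of 36 subunits, with a mean of 9.56 against 9.30 to 9.38. Many results that rest on quadriceps control 4 are therefore given with and without it, and a few with and without quadriceps cKO 4. Fewer cells or mitochondria of a kind and less RNA per cell cannot be told apart in RNA of whole muscle.

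Complex I genes were lower in cKO muscle. In quadriceps the mean over the 36 subunits lay between 9.66 and 10.12 in controls, with a median of 9.74, and between 9.30 and 9.56 in cKO, with a median of 9.35, so no cKO array reached any control array. In soleus the same mean lay between 9.58 and 9.75 in controls (median 9.63) and between 9.27 and 9.39 in cKO (median 9.35), and again the groups did not overlap. Assembly factor means ranged from 7.06 to 7.51 in control quadriceps and from 6.53 to 6.86 in cKO quadriceps. The soleus ranges were 6.60 to 6.91 for controls against 6.23 to 6.51 for cKO. The separate levels of control and cKO arrays, and the high position of both number 4 quadriceps arrays, are seen in the plot of means by array.

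**Figure D1:**
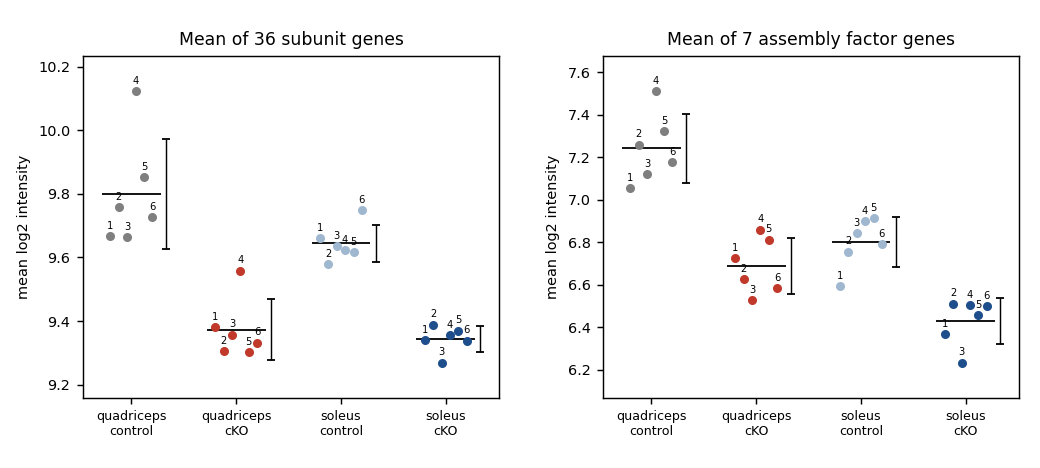
Mean log2 intensity over the 36 subunit genes (left) and the 7 assembly factor genes (right) on each array, by group; numbers are replicate numbers, horizontal lines group means and vertical bars 1 SD (n = 6). In each muscle the cKO arrays lie below the control arrays, and number 4 is the highest subunit mean of both quadriceps groups (10.12 and 9.56).

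In quadriceps 30 of the 36 subunits fell in cKO and none rose, against 17.7% of all genes tested that were called lower and 22.3% called higher. The median change over the subunits was -0.42, beside -0.01 over all genes. All 36 had a change below 0, and the cKO arrays lay wholly below the control arrays for 15 of them, a pattern that 6.06% of all genes showed; for no subunit were they wholly above, as they were for 10.1% of all genes. Of the 7 assembly factors 4 fell and none rose, with a median change of -0.49. Without quadriceps control 4 the count of lower subunits was again 30 and the median -0.38. Leaving out quadriceps cKO 4 instead gave a median of -0.46. When each array was centred on its 75th percentile, 27.9% of all genes were called lower and 16.7% higher, and 33 subunits were lower.

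In soleus 23 of the 36 subunits fell in cKO and none rose, against 9.94% of all genes called lower and 13.2% called higher. The median change was -0.33, beside -0.02 over all genes, and 33 of the 36 had a change below 0. The cKO arrays lay wholly below the controls for 22 subunits (4.96% of all genes did so) and wholly above for none (7.82%). That is more separate subunits than in quadriceps, where the controls were more spread: the SD of the subunit mean was 0.17 in control quadriceps and 0.06 in control soleus. Assembly factors again gave 4 lower of 7 and none higher, with a median of -0.47. All groups share 1 estimate of the spread, and without quadriceps control 4 the soleus count was 28 lower subunits (Ndufa1, Ndufa4l2, Ndufa12, Ndufb10 and Ndufs4 were added) with the median still -0.33. Without soleus control 1, 1 subunit was called higher. The split of called genes in soleus moved with the scaling, from 7.45% lower and 15.1% higher with median centring, where 20 subunits were lower, to 12.8% lower and 11.5% higher with 75th percentile centring, where 23 were.

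**Figure D2:**
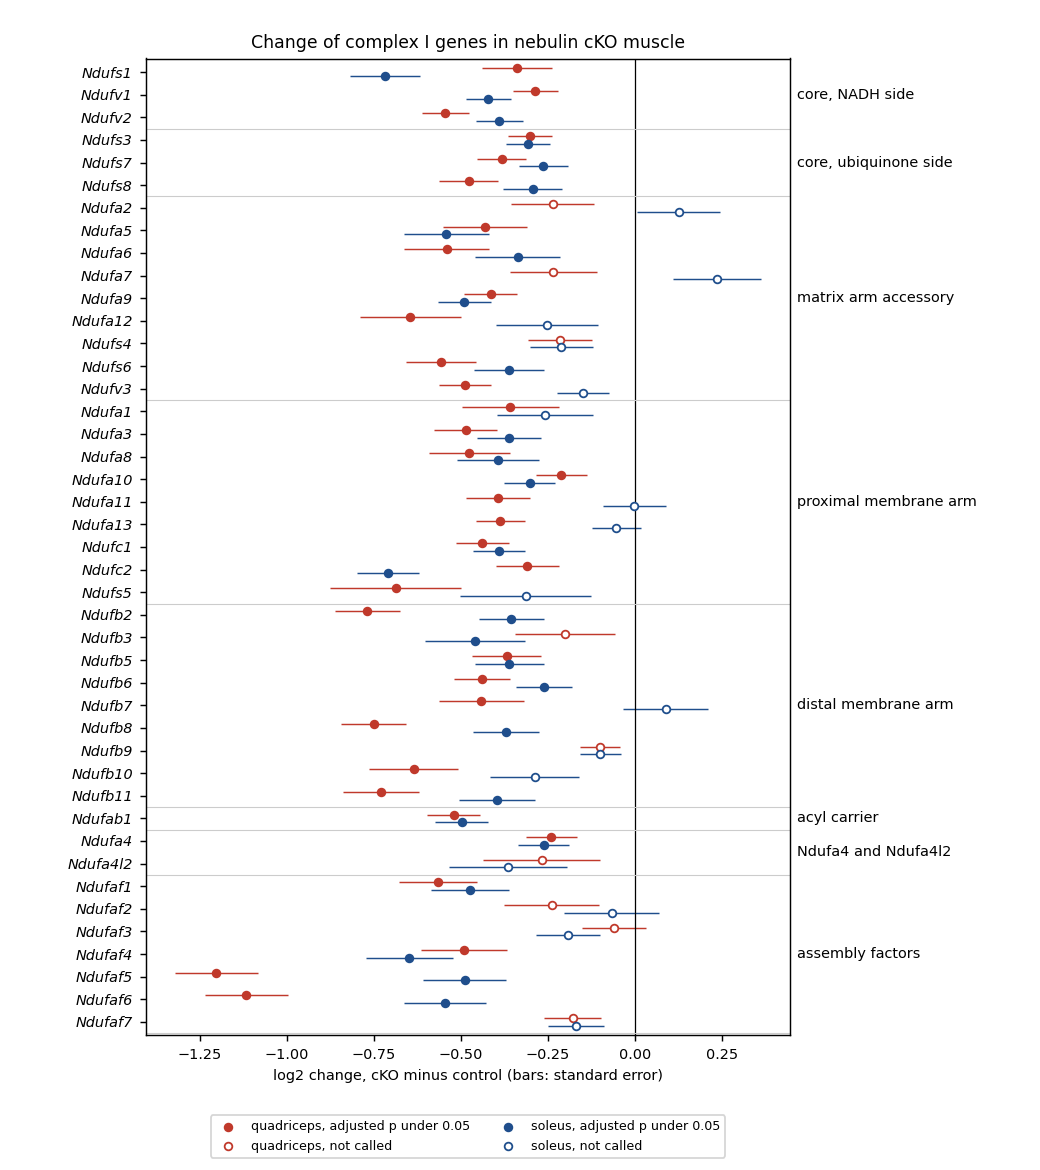
Log2 change (cKO minus control) of each of the 43 members in quadriceps (red) and soleus (blue), grouped by place in the enzyme; bars are standard errors of the limma fit over 24 arrays and filled points have an adjusted p under 0.05. All quadriceps points lie below 0, the largest falls are Ndufaf5 (-1.20) and Ndufaf6 (-1.12), and in soleus only Ndufa2, Ndufa7 and Ndufb7 lie above 0, none of them called.

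The 6 core subunits measured, which carry the electron path, all fell in both muscles. On the NADH side, Ndufv1, the subunit that binds NADH and the flavin, lay between 9.90 and 10.15 (median 9.98) in control quadriceps and between 9.62 and 9.94 (median 9.68) in cKO. Its change was -0.29 (SE 0.06) in quadriceps and -0.42 in soleus, with limma adjusted p of 9e-04 and 1.77e-05. Only quadriceps cKO 4, at 9.94, reached into the control range. Ndufv2, its iron-sulphur partner, fell by 0.55 in quadriceps (limma adjusted p = 4.29e-07) and by 0.39 in soleus (limma adjusted p = 8.93e-05), and in both muscles control and cKO arrays were separate.

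Ndufs1, the largest subunit of the matrix arm and holder of several iron-sulphur clusters, showed the largest fall of any subunit in soleus. Its soleus controls lay between 10.47 and 10.90 (median 10.77) and its soleus cKO arrays between 9.95 and 10.12 (median 9.99). The soleus change was -0.72 (SE 0.10, limma adjusted p = 5.18e-06), a 1.65-fold lower level with no overlap between the groups. In quadriceps Ndufs1 ranged from 10.09 to 10.90 (median 10.67) in controls and from 10.13 to 10.43 (median 10.25) in cKO, a change of -0.34 (limma adjusted p = 0.00913). Quadriceps control 4 was the lowest control here, unlike for most subunits, and without it the change was -0.44 (limma adjusted p = 1.30e-04). The difference between the muscles, 0.38 (SE 0.14), was not called (limma adjusted p = 0.0813), but was with the animal as a random block (limma adjusted p = 0.0423).

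On the ubiquinone side, Ndufs3, Ndufs7 and Ndufs8, core subunits near the site where ubiquinone is reduced, fell by 0.30, 0.38 and 0.48 in quadriceps. Their limma adjusted p-values there were 4.24e-04, 1.11e-04 and 6.94e-05. In soleus the falls were 0.31, 0.26 and 0.29, with limma adjusted p of 5.94e-04, 0.00712 and 0.0119. The call of Ndufs8 in soleus was lost when each array was centred on its median (limma adjusted p = 0.0502). Across the core, quadriceps control 4 was the lowest control array, with a mean over the 6 core subunits of 10.43 against 10.53 to 10.71 on the other 5. The array was thus not high for every class of member.

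In the accessory subunits of the distal membrane arm, where the outer proton pumps sit, 7 of 9 fell in quadriceps and 6 of 9 in soleus. Ndufb2 had the largest fall of any subunit in quadriceps: controls lay between 8.67 and 9.38 (median 8.85) and cKO between 7.94 and 8.33 (median 8.20). The groups did not overlap, and the change was -0.77 (SE 0.09, limma adjusted p = 2.60e-07), a 1.70-fold lower level. Without quadriceps control 4 it was -0.68 (limma adjusted p = 1.59e-07). In soleus Ndufb2 went from between 8.28 and 8.46 in controls to between 7.93 and 8.11 in cKO, also without overlap, a change of -0.36 (limma adjusted p = 0.0055).

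Ndufb8, an accessory subunit often probed on blots as a marker of assembled complex I, lay between 8.97 and 9.60 (median 9.32) in control quadriceps and between 8.39 and 8.77 (median 8.58) in cKO. Its change was -0.75 (SE 0.09, limma adjusted p = 4.43e-07) there and -0.37 (limma adjusted p = 0.00432) in soleus, with separate groups in both muscles. Others of this arm ranged in quadriceps from -0.73 for Ndufb11 to -0.10 for Ndufb9. Ndufb9 had a limma adjusted p of 0.162 in quadriceps and 0.234 in soleus; without quadriceps control 4 its quadriceps change of -0.14 was called (limma adjusted p = 0.0476). Ndufb3, with -0.20 in quadriceps (limma adjusted p = 0.264) and -0.46 in soleus (limma adjusted p = 0.019), was the only subunit called in soleus and not in quadriceps.

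All 9 accessory subunits of the proximal membrane arm fell in quadriceps, and 5 of 9 fell in soleus. Ndufc2, a small membrane subunit at the base of the arm, had the smallest p of any subunit in soleus. Its soleus controls lay between 10.21 and 10.60 (median 10.51) and soleus cKO between 9.62 and 9.97 (median 9.75), without overlap. The change was -0.71 (SE 0.09, limma adjusted p = 1.03e-06), a 1.63-fold lower level. In quadriceps the arrays overlapped, from 10.25 to 10.81 (median 10.36) in controls and from 9.95 to 10.28 (median 10.13) in cKO, with a change of -0.31 (limma adjusted p = 0.00738).

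The quadriceps call of Ndufa1, another subunit of this arm, rested on quadriceps control 4. Its controls lay at 8.91, 9.01, 8.90, 10.22, 9.21 and 9.07, and its cKO arrays between 8.77 and 9.03. With that array the change was -0.36 (limma adjusted p = 0.0414) and without it -0.16 (limma adjusted p = 0.0625). The soleus groups of Ndufa1 were narrow, 9.05 to 9.16 in controls and 8.76 to 8.99 in cKO, and did not overlap. Its soleus change of -0.26 was not called with all arrays (limma adjusted p = 0.194) and was called without quadriceps control 4 (limma adjusted p = 0.00292).

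Ndufs5, an intermembrane-space subunit of the same arm, had the widest cKO spread of any member. Its cKO quadriceps arrays 1 to 6 read 9.60, 9.23, 9.57, 9.98, 8.68 and 9.87, against 9.85 to 10.80 in controls. The change was -0.69 (SE 0.19, limma adjusted p = 0.00497), with overlapping groups. In cKO soleus the arrays read 9.35, 9.22, 9.26, 9.62, 8.72 and 9.76, so that number 5 was the lowest in both muscles. The soleus change of -0.31 was not called (limma adjusted p = 0.252). RefSeq lists a pseudogene copy, Ndufs5-ps, and a further probe set that carries both symbols was left out.

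Of the 9 accessory subunits of the matrix arm 6 fell in quadriceps and 4 in soleus. Ndufa9, a matrix-arm subunit near the ubiquinone site, fell by 0.42 in quadriceps and 0.49 in soleus (limma adjusted p = 9.19e-05 and 1.95e-05). Ndufa5, of the same arm, fell by 0.43 in quadriceps (limma adjusted p = 0.00612), but by 0.28 without quadriceps control 4 (limma adjusted p = 0.00998), and by 0.54 in soleus (limma adjusted p = 0.0014). Ndufa2 and Ndufa7 were called in neither muscle: their changes were -0.24 and -0.23 in quadriceps and 0.12 and 0.24 in soleus. Ndufs4, whose loss in mice is a model of Leigh syndrome, had -0.22 in quadriceps (limma adjusted p = 0.0606) and -0.21 in soleus (limma adjusted p = 0.0957).

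Ndufab1, the mitochondrial acyl carrier protein, which also serves fatty acid and iron-sulphur cluster synthesis, fell by 0.52 in quadriceps (limma adjusted p = 5.12e-06) and by 0.50 in soleus (limma adjusted p = 1.81e-05). Ndufa4 bears the family name but is now placed with complex IV; it fell by 0.24 and 0.26 (limma adjusted p = 0.0108 and 0.00917). Its relative Ndufa4l2, known as a gene induced by low oxygen, had -0.27 in quadriceps (limma adjusted p = 0.206) and -0.37 in soleus (limma adjusted p = 0.125). Its soleus value was called when quadriceps control 4 was left out (limma adjusted p = 0.0078), and its quadriceps value was then -0.05.

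The assembly factors held the largest changes of all members. Ndufaf5, a matrix enzyme that modifies the core subunit Ndufs7 early in assembly, lay between 7.23 and 7.77 (median 7.50) in control quadriceps and between 6.07 and 6.47 (median 6.39) in cKO. No array overlapped, and the change was -1.20 (SE 0.12, limma adjusted p = 9.54e-09), a 2.30-fold lower level. In soleus the groups overlapped, 6.26 to 6.84 (median 6.80) in controls against 5.78 to 6.43 (median 6.23) in cKO. The soleus change was -0.49 (SE 0.12, limma adjusted p = 0.00307).

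Ndufaf6, an assembly factor of the early ubiquinone-side module, lay between 6.24 and 7.21 (median 6.47) in control quadriceps and between 5.23 and 5.70 (median 5.41) in cKO, a change of -1.12 (SE 0.12, limma adjusted p = 3.08e-08), or 2.17-fold lower. Without quadriceps control 4 the change was -0.99 (limma adjusted p = 7.82e-09). In soleus it went from between 5.35 and 5.80 in controls to between 5.03 and 5.24 in cKO, a change of -0.55 (limma adjusted p = 0.00104). Control and cKO arrays of Ndufaf6 were separate in both muscles.

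Ndufaf1, a chaperone of the membrane-arm intermediate, fell by 0.57 in quadriceps and 0.47 in soleus (limma adjusted p = 2.18e-04 and 0.00227). Ndufaf4, a factor of the early matrix-arm modules, fell by 0.49 and 0.65 (limma adjusted p = 0.00258 and 2.69e-04). The other 3 were called in neither muscle. Ndufaf3, the partner of Ndufaf4, had -0.06 and -0.19, and Ndufaf2, a factor of late assembly, had -0.24 and -0.07. The quadriceps value of Ndufaf2 was -0.07 without quadriceps control 4. Ndufaf7, a mitochondrial methyltransferase, had -0.18 (limma adjusted p = 0.0782) and -0.17 (limma adjusted p = 0.137), and without quadriceps control 4 its quadriceps value of -0.21 was called (limma adjusted p = 0.0432).

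To show the sequence in front of members that changed most in each class, stretches of 250 bases before a RefSeq start (GRCm38.p6) are printed 5′ to 3′ on the gene's own strand. Ndufb2 and Ndufb8 had the largest falls among the subunits in quadriceps, Ndufc2 the smallest p in soleus, and Ndufaf4 and Ndufaf5 the largest falls among the assembly factors in soleus and quadriceps. They lie at chr6:39592315-39592564 (plus strand), chr19:44555443-44555692 (minus strand), chr7:97399753-97400002 (plus strand), chr4:24897833-24898082 (plus strand) and chr2:140170396-140170583 (plus strand, cut to the 188 bases outside the annotated gene). Capitals mark matches, on either strand, to 5 searched motifs named for factors of mitochondrial genes: AAGGTCA (ERR), the palindromic NRF1 motif, CCGGAAG (ETS, GABP), GGGCGG (SP1) and AAGATGG (YY1).
Ndufb2: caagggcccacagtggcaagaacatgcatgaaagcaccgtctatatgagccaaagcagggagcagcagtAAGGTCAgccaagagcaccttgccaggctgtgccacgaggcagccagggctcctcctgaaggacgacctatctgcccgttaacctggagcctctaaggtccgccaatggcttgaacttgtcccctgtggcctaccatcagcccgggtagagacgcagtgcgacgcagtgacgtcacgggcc
Ndufb8: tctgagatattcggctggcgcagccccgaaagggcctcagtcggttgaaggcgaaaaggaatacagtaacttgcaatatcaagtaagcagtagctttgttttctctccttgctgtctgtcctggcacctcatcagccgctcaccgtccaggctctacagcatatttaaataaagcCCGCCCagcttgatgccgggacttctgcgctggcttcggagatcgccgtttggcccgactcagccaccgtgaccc
Ndufc2: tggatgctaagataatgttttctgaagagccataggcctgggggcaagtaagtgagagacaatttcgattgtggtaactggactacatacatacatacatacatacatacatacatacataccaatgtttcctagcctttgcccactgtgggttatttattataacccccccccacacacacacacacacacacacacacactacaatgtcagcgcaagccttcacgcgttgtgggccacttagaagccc
Ndufaf4: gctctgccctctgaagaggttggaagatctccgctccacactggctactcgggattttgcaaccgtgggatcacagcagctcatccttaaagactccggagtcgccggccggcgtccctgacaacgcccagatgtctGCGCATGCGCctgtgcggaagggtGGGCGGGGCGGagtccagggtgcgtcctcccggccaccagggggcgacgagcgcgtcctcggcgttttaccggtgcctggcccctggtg
Ndufaf5: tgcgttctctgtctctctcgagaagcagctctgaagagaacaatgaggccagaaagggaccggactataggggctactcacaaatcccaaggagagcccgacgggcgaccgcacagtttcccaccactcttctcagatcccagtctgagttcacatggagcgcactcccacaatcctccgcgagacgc

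In Ndufaf4 a pair of GGGCGG matches overlap by 1 base; in Ndufb8 the match lies on the other strand and reads CCGCCC. The printed parts of Ndufc2 and Ndufaf5 held none. Over windows of 300 bases, 250 before and 50 after the start, 32 subunits and 6 assembly factors had an entry. AAGGTCA was in windows of 2 of the 32 subunits (Ndufb2 and Ndufs5) and in those of 5.38% of all 27025 genes with a window. The NRF1 motif was in 3 members (Ndufa11, Ndufaf4 and Ndufaf5) and in 1.07% of all genes. GGGCGG was in 14 subunits and 5 assembly factors (38.2% of all genes), CCGGAAG in 4 subunits and 1 assembly factor (9.93%), and AAGATGG in 7 subunits and no assembly factor (7.28%). A match is a description of the letters and says nothing of binding.

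The change in cKO was then compared between the muscles. Of the 36 subunits 26 had the larger fall in quadriceps and 10 in soleus. A difference between the 2 changes was called for 6 subunits: 5 fell more in quadriceps (4.89% of all genes were called in that direction) and 1, Ndufc2, fell more in soleus (7.39%). Of the assembly factors 2 were called, both with the larger fall in quadriceps. The median difference over the subunits was -0.12, beside 0.002 over all genes, and it was -0.07 without quadriceps control 4. Called-gene shares for this difference moved to 5.75% lower and 4.82% higher with median centring, where 6 subunits fell more in quadriceps and none fell more in soleus.

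Ndufaf5 had the largest difference, -0.71 (SE 0.17, limma adjusted p = 0.00612), and Ndufaf6 followed with -0.57 (limma adjusted p = 0.0252). Both kept the call with any 1 array left out, the highest limma adjusted p being 0.0136 for Ndufaf5 and 0.0472 for Ndufaf6. The subunit differences were near the threshold. Ndufb2 gave -0.41 (limma adjusted p = 0.0384), Ndufv3, an accessory subunit beside Ndufv1, -0.34 (limma adjusted p = 0.0339), and Ndufa13, also known as Grim19, -0.33 (limma adjusted p = 0.0275). With each of the 24 arrays left out in turn, the call was kept in 14, 16 and 19 fits respectively, with highest limma adjusted p-values of 0.0717, 0.0645 and 0.0551. With the animal as a random block, Ndufb8 was called as well (-0.38, limma adjusted p = 0.0336).

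Ndufc2 had a difference of 0.40 (SE 0.13, limma adjusted p = 0.0371) in the other direction, and the call was lost with median centring (limma adjusted p = 0.0637), 75th percentile centring (limma adjusted p = 0.0805) and in 16 of the 24 fits with 1 array left out (limma adjusted p up to 0.0684). Ndufb7 and Ndufa11 lie outside the rule for named genes and were chosen after their values were seen. Ndufb7, an intermembrane-space subunit of the distal arm, changed by -0.44 in quadriceps and 0.09 in soleus, a difference of -0.53 (limma adjusted p = 0.0434). Its control quadriceps arrays read 8.41, 8.41, 8.42, 9.39, 8.76 and 8.29, and without the fourth the quadriceps change was -0.29 and the difference -0.37 (limma adjusted p = 0.0233). With each array left out in turn its call was kept in 9 of 24 fits. Ndufa11, a membrane-arm subunit, had a difference of -0.39 (limma adjusted p = 0.0451), which was -0.27 and not called over the mean of its probe sets (limma adjusted p = 0.161).

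As single arrays were left out, the number of subunits called with the larger fall in quadriceps ran from 0, without soleus control 2, to 7. It stayed within 1.5 times of 5 in 7 of the 24 fits. The number with the larger fall in soleus ran from 0 to 2. Most subunits thus fell in both muscles, while the set called as unequal changed with the array left out. The same members can be followed array by array in the heat map and in the plots of single members.

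**Figure D3:**
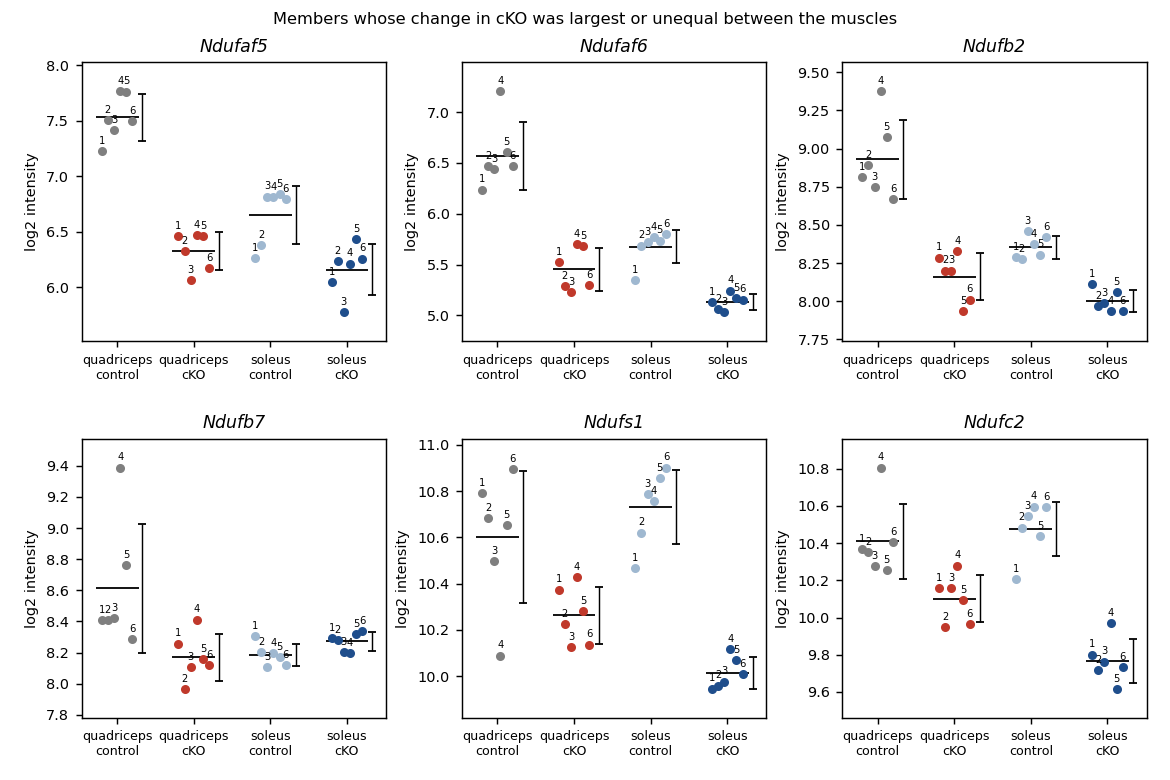
Log2 intensity of 6 members on each array, by group; numbers are replicate numbers, horizontal lines group means and vertical bars 1 SD (n = 6). Ndufaf5 and Ndufaf6 fell in both muscles and most in quadriceps, Ndufb2 likewise, Ndufb7 was called lower in quadriceps and its control 4 lies at 9.39, and Ndufs1 and Ndufc2 have the larger change in soleus (-0.72 and -0.71).

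**Figure D4:**
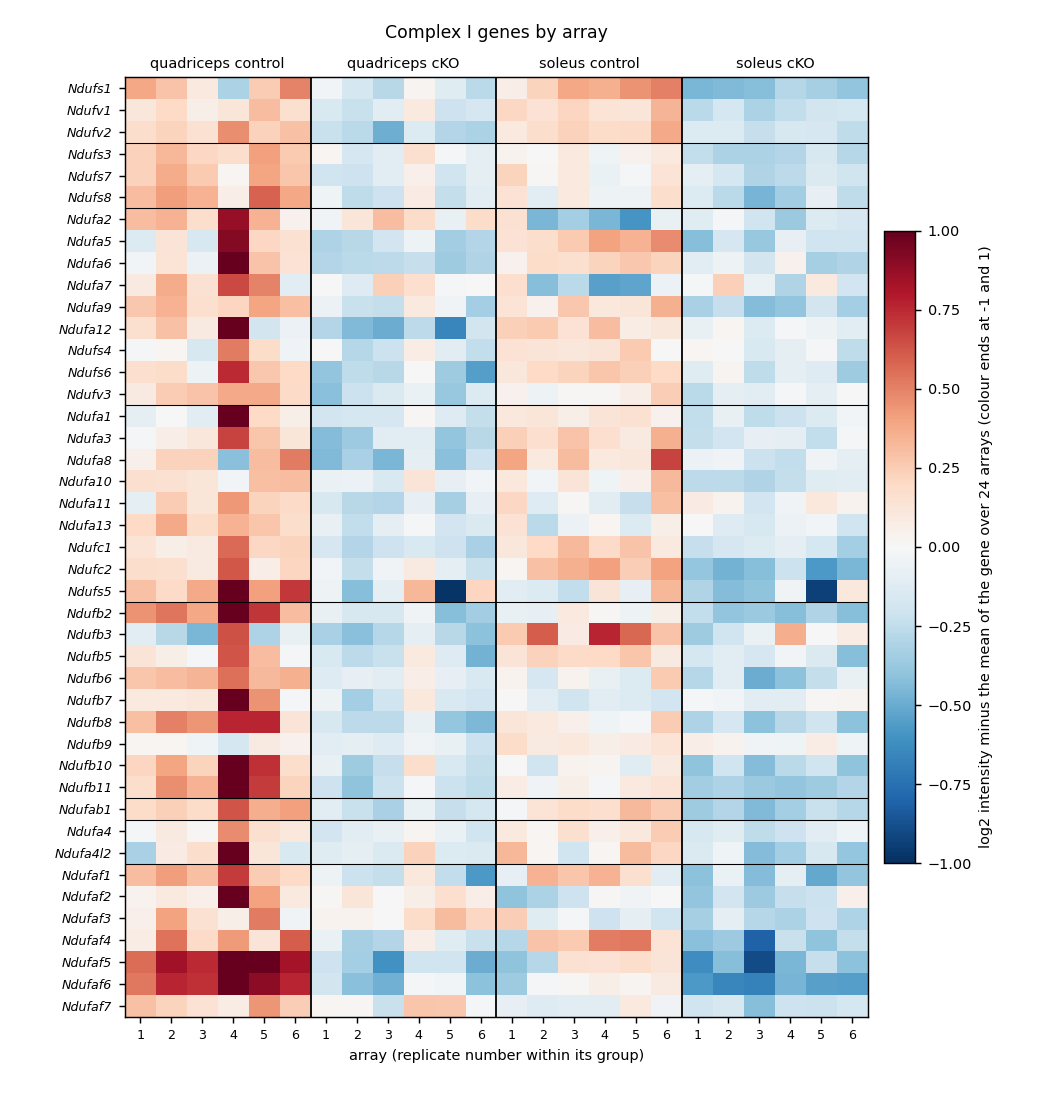
Log2 intensity of the 43 members on the 24 arrays, each gene minus its own mean over all arrays; red is above and blue below that mean, rows are grouped by place in the enzyme (core, matrix arm, proximal and distal membrane arm, acyl carrier, Ndufa4 pair, assembly factors). Control columns are mostly red and cKO columns mostly blue; control quadriceps array 4 is the reddest column, and Ndufs5 is dark blue on cKO array 5 of both muscles (8.68 and 8.72).

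The cKO comparisons of the 2 muscles have no array in common, but same-numbered quadriceps and soleus arrays deviated together and may come from 1 animal. Of the subunits 22 were lower in both, which is 73.3% of those lower in quadriceps and 95.7% of those lower in soleus. Over all genes tested 824 were lower in both, which is 29.1% and 51.8% of the lists. A further 8 (Ndufa1, Ndufa11, Ndufa12, Ndufa13, Ndufb7, Ndufb10, Ndufs5 and Ndufv3) were called in quadriceps only, and their difference between muscles was called for Ndufa11, Ndufa13, Ndufb7 and Ndufv3. In neither muscle were Ndufa2, Ndufa4l2, Ndufa7, Ndufb9 and Ndufs4 called. To describe variation inside the groups, each value was taken minus the mean of its gene in its group. The median Pearson correlation between pairs of subunits over the 24 arrays was then 0.40 (630 pairs). It was 0.34 without quadriceps control 4. Differences between the groups do not enter these values. The arrays share their scaling, so this describes the set and is no test.

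Between the control muscles, soleus was lower than quadriceps for 14 of the 36 subunits and higher for 1, against 18.3% of all genes called lower and 15.2% called higher. The median was -0.10, beside 0.03 over all genes, and soleus arrays lay wholly below quadriceps for 6 subunits (7.73% of all genes) and wholly above for none (3.94%). With median centring 26.1% of all genes were called lower and 7.48% higher, 17 subunits were lower and their median was -0.20; that centring moved the median of all genes to -0.07. Without quadriceps control 4, 12 subunits were lower and 2 higher, with a median of -0.05: Ndufs5 (limma adjusted p = 0.08) and Ndufv3 (limma adjusted p = 0.0607) were no longer called, and Ndufa5 was higher by 0.26 (limma adjusted p = 0.0185). Soleus is known as a muscle of slow, mitochondria-rich fibres; on these arrays Ndufb3 was the 1 subunit of 36 called higher there.

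The lower subunits of control soleus lay mainly in the distal membrane arm, where 6 of 9 were lower and 1, Ndufb3, higher, and on the ubiquinone side, where 3 of 3 were lower; none of the 3 NADH-side core subunits was called. Ndufa2 had the lowest value of any subunit: control quadriceps lay between 9.56 and 10.38 (median 9.84) and control soleus between 8.93 and 9.67 (median 9.12), overlapping through soleus control 1. Its difference was -0.64 (SE 0.12, limma adjusted p = 1.39e-04), and -0.54 without quadriceps control 4. Ndufb3 was higher in soleus by 0.53 (limma adjusted p = 0.00543) and by 0.67 without that array. Its control soleus arrays read 7.83, 8.18, 7.65, 8.33, 8.15 and 7.86, and its control quadriceps arrays lay between 7.12 and 8.21 (median 7.38), and only number 4 reached into the soleus range.

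Among assembly factors 5 of 7 were lower in control soleus. Ndufaf6 and Ndufaf5 led, with -0.89 (limma adjusted p = 1.56e-06) and -0.88 (limma adjusted p = 2.22e-06), and for both the control soleus arrays lay wholly below the control quadriceps arrays. The lowest control quadriceps array of Ndufaf5 read 7.23 and the highest control soleus array 6.84. For Ndufaf6 these were 6.24 and 5.80. Both genes were thus lower in control soleus than in control quadriceps, and lower still in cKO soleus.

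Between the cKO muscles few subunits were called. Soleus was lower than quadriceps for 2 subunits, Ndufc2 (-0.33) and Ndufs3 (-0.24), both with limma adjusted p of 0.0071, and higher for none, against 16.9% and 11.9% of all genes (28.8% in either direction). The arrays of the muscles were separate for Ndufs1, lower in soleus (10.6% of all genes were), and for Ndufa12, higher in soleus (5.33%), and neither was called. The median was -0.04 and became 0.05 with 75th percentile centring, so no direction is given for it. The call of Ndufs3 was lost with that centring (limma adjusted p = 0.0665). Among assembly factors Ndufaf3 (-0.39, limma adjusted p = 0.00289), Ndufaf7 (-0.29, limma adjusted p = 0.00956) and Ndufaf6 (-0.32, limma adjusted p = 0.0424) were lower in cKO soleus. The call of Ndufaf6 was kept in 16 of 24 fits with 1 array left out (limma adjusted p up to 0.11, without quadriceps cKO 4), and that of Ndufaf7 was lost with quantile normalization (limma adjusted p = 0.0536). Without both number 4 quadriceps arrays, a setting chosen after seeing the data, 3 subunits were lower and 4 higher. Without quadriceps control 4 alone 5 were lower and 1 higher, 4 were lower without quadriceps cKO 3, and with the animal as a random block 7 were lower (Ndufa2, Ndufa9, Ndufa10, Ndufb6 and Ndufs1 were added).

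The rest of the respiratory chain was counted beside complex I, again against 17.7% of all genes lower and 22.3% higher in quadriceps and 9.94% and 13.2% in soleus. In complex III, which takes electrons from ubiquinol, 7 of 9 genes fell in quadriceps and 6 of 9 in soleus. In complex IV, cytochrome oxidase, 9 of 12 fell and 1 rose in quadriceps (Cox8a, 0.27), and 6 of 12 fell in soleus. In complex V, the ATP synthase, 9 of 15 fell in quadriceps and 4 of 15 in soleus. In complex II, the succinate dehydrogenase, 2 of 4 fell in quadriceps and 4 of 4 in soleus, with medians of -0.22 and -0.50.

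Complex I assembly factors with other names changed less uniformly: 4 of 13 fell (30.8%) and 2 rose (15.4%) in each muscle. Of all genes 17.7% were called lower and 22.3% higher in quadriceps, and 9.94% and 13.2% in soleus. Tmem126b, of the membrane-arm assembly complex with Ndufaf1, fell by 0.53 and 0.42. Its partner Ecsit fell by 0.50 in quadriceps and had -0.19 in soleus (limma adjusted p = 0.163), and Acad9, the third, had -0.26 (limma adjusted p = 0.0548) and -0.21 (limma adjusted p = 0.17). Lyrm2 rose by 0.25 in quadriceps and 0.47 in soleus.

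Of 13 regulators of mitochondrial genes 3 fell and 3 rose in quadriceps (23.1% each way, beside 17.7% and 22.3% of all genes), and 2 fell in soleus (15.4%, beside 9.94%), shares near those of all genes. Ppargc1a, the coactivator PGC-1alpha, had -0.51 in quadriceps (limma adjusted p = 0.196) and fell by 1.78 in soleus (limma adjusted p = 1.10e-04). The nuclear receptor Esrra fell by 0.46 in quadriceps (limma adjusted p = 0.00124) and had -0.24 in soleus (limma adjusted p = 0.114), while Esrrg rose by 1.20 in quadriceps (limma adjusted p = 2.59e-04). Nrf1, the factor named for respiratory genes, had -0.04 and 0.05. Of 14 markers of mitochondrial mass 7 fell in quadriceps, and 10 fell and 1 rose in soleus.

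Markers of other tissue components moved with the genotype as well, and their part in the results on complex I was not tested. Their counts stand beside 17.7% of all genes called lower and 22.3% higher in quadriceps, and 9.94% and 13.2% in soleus. Of 8 macrophage markers 6 rose in quadriceps and 5 in soleus; their summed level ran from 9.40 to 10.19 in control and from 10.24 to 10.49 in cKO quadriceps, and from 9.29 to 9.77 and from 9.89 to 10.44 in soleus. Of 6 fibroblast markers 5 and 4 rose, with sums of 12.47 to 13.16 and 13.20 to 13.47 in quadriceps and of 12.85 to 13.05 and 12.96 to 13.43 in soleus. Of 4 adipocyte markers 3 rose in quadriceps, where sums ran from 9.01 to 10.57 and from 9.84 to 11.65, and none in soleus, where they ran from 8.31 to 9.23 and from 8.66 to 9.94. Of 4 endothelial markers 3 fell in soleus, where sums ran from 10.77 to 11.49 in controls and from 10.36 to 10.68 in cKO, and none was called in quadriceps. Of 3 tendon markers 2 fell in soleus, where the sums were separate (9.60 to 10.28 in controls, 8.67 to 9.53 in cKO), and 1 fell in quadriceps, with sums of 8.74 to 10.21 and 8.88 to 9.36. The 1 Schwann cell marker tested, Sox10, fell by 0.27 in quadriceps and had -0.05 in soleus. No marker of these lists was dim on all arrays.

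Fibre markers also moved. All 7 slow fibre markers rose in cKO quadriceps, where their sum went from between 11.53 and 13.06 to between 13.87 and 14.40; in soleus 2 rose and 1 fell, with sums of 14.67 to 15.16 and 15.14 to 15.16. Of 9 fast fibre markers 5 fell and 1 rose in quadriceps and 7 fell in soleus. The sum over the 7 general muscle fibre markers lay between 15.06 and 15.36 on every array, so the labelled tissue showed its defining genes as a sum. The brightest genes lead such a sum, so it does not give the level of each marker. Of the 7, 2 fell and 3 rose in quadriceps, and 1 fell and 1 rose in soleus. Beside these fibre marker counts, 17.7% of all genes were called lower and 22.3% higher in quadriceps, and 9.94% and 13.2% in soleus. Both brown adipocyte markers, Ucp1 and Cidea, were lower in control soleus than in control quadriceps, with sums of 6.28 to 6.56 against 7.71 to 10.94. In that comparison 18.3% of all genes were called lower. Brown fat cells are rich in complex I, and the part of these markers in the difference between the muscles was not tested. On the number 4 quadriceps arrays, both highest for most subunits, the sum was 7.84 in control and 9.30 in cKO. The cKO quadriceps sums ran from 6.62 to 10.50. Any link between these sums and the subunit levels of single arrays was not tested.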

How the data were processed

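RNA was labelled with biotin and hybridised to Affymetrix arrays. The authors deposited 1 intensity per probe set and array, on a linear scale from 1.76 to 10075; per the submitters' processing notes these came from Affymetrix Expression Console with RMA, build mm10, versions and settings not given in the sources used here. RMA equalises the arrays' distributions, so values are relative within an array. Intensities were turned to log2. Of 35557 probe sets, 21789 with 1 symbol were used (1621 have several, 12147 none listed), and symbols were updated through Entrez numbers (21698 matched). Genes above the array's 30th percentile on at least 6 arrays were kept (15999 of 19938).

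Groups came from sample titles. A limma model of 4 group means (R 4.3.3, limma 3.58.1; 20 residual and 6.52 prior degrees of freedom) was fitted to 24 arrays and had been tested on simulated data. The labels number the arrays but name no animals, so p-values measure the spread between these arrays; their number limits the precision. Array medians lay between 4.74 and 4.94, and the dim limit between 3.51 and 3.72.

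The members and gene lists were chosen with earlier results of these data known. Named were the core subunits, all assembly factors, the Ndufa4 pair, the 4 largest called changes each way in each cKO comparison and the 3 largest between control muscles, up to 6 members called for a difference, members called against their class, and members called in no comparison; other members were named after their values were seen. Sequences are RefSeq windows of GRCm38.p6, which 38 of 43 members have.

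Numbers 1 to 6 recur in every group. Same-numbered quadriceps and soleus arrays deviated together (r 0.155 to 0.305 in controls, 0.216 to 0.450 in cKO, over genes, all 6 of 6 above 0.1), so they were treated as muscles of 1 animal in a blocked alternative, although the labels give 40 and 41 days for the cKO arrays numbered 4. Between control and cKO, same-numbered arrays did not meet this rule: r was -0.147 to 0.169 in quadriceps (3 of 6 above 0.1) and 0.041 to 0.316 in soleus (4 of 6, median 0.203 against -0.048 for other numbers). Alternatives were other scalings, filters, probe set rules, blocks, age, array weights and each array left out.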

Additional observations from a re-analysis of the deposited data

Results flagged for a closer look

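In 180 groups of 6 values (43 members and both class means, in 4 groups), 20 had an end array separated from the others by a gap that is large for the range of the group (11.1%; chance gives about 1 in 20). Of these, 12 were in quadriceps control 4 and 4 in quadriceps cKO 4. On quadriceps control 4 the high values were Ndufa1 10.22, Ndufa2 10.38, Ndufa4 11.88, Ndufa4l2 8.24, Ndufa5 10.25, Ndufa6 11.02 and Ndufa12 10.61. Further high values there were Ndufaf2 7.25, Ndufb3 8.21, Ndufb6 10.13, Ndufc1 11.34 and Ndufc2 10.81. On quadriceps cKO 4 the high values were Ndufa4l2 7.16, Ndufb6 9.65, Ndufv1 9.94 and the mean over the subunits, 9.56. Low values were Ndufaf4 6.32 and Ndufaf7 6.51 on soleus cKO 3, Ndufb5 9.82 on soleus cKO 6 and Ndufaf6 5.35 on soleus control 1.

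The cKO change differed between the muscles by the test of the difference itself (limma, adjusted p under 0.05) for 8 members. Quadriceps minus soleus was -0.39 for Ndufa11, -0.33 for Ndufa13, -0.71 for Ndufaf5, -0.57 for Ndufaf6, -0.41 for Ndufb2, -0.53 for Ndufb7, -0.34 for Ndufv3 and 0.40 for Ndufc2.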

How the results depend on the processing

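The counts of lower subunits in the cKO comparisons stayed within 1.5 times the reported values under every alternative run (28 to 33 in quadriceps and 21 to 28 in soleus with 1 array left out), and no called result reversed; the median between cKO muscles, which has no test, changed sign. One subunit was higher in cKO soleus with array weights, and 0 to 1 with 1 array left out. For the difference between the muscles, the count with the larger fall in quadriceps was 3 with quantile normalization or no filter, 8 with array weights and 0 to 7 with 1 array left out. The count with the larger fall in soleus was 0 with median or 75th percentile centring, 2 with array weights and 0 to 2 with 1 array left out. Between control muscles the median was -0.20 with median centring, 2 subunits were higher with 75th percentile centring, array weights or both number 4 quadriceps arrays left out (1 to 2 with 1 array left out), and 3 assembly factors were called in a fit of only those groups. Between cKO muscles the lower count was 7 with median centring, 1 with 75th percentile centring, 5 with only those groups, 8 with array weights and 2 to 5 with 1 array left out. The higher count there was 6 with 75th percentile centring, 2 with quantile normalization, 4 with only those groups, 5 with array weights, 4 with both number 4 quadriceps arrays left out and 0 to 1 with 1 array left out; called assembly factors were 1 with quantile normalization and 5 with array weights. With the replicate block, the animal as a random block gave 2 subunits with the larger fall in soleus and 7 lower in cKO soleus than quadriceps, and the number as a fixed block gave 1 higher there; beside the members named above, the random block changed no call of a member. The causes of these shifts were not tested. With 6 arrays a group, differences between the muscles near 0.4 lay at the limit of what was called.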

Other observations

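Across the 24 arrays, the genes outside the family whose log2 values followed the mean over the 36 subunits most closely were Cisd1 (Pearson r 0.962), a mitochondrial outer membrane protein with an iron-sulphur cluster, Fmc1 (0.959), Ethe1 (0.955), a mitochondrial sulphur dioxygenase, Abhd11 (0.943) and 0610012G03Rik (0.939). The most opposed were Sestd1 (-0.942), Anxa4 (-0.940) and Btbd9 (-0.938). Group means of Fmc1 were 7.24 in control and 6.10 in cKO quadriceps, and 6.65 and 5.97 in soleus. All 24 points share the scaling of the arrays and the 4 groups, so these values are a description.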
